A study of Mus musculus with 13 samples.

Results

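A group of 6 genes of protein synthesis was followed through 13 mouse RNA-sequencing libraries: the ribosomal protein genes Rps20 and Rpl30, the poly(A)-binding protein gene Pabpc1, and the ribosome biogenesis genes Brix1, Nol6 and Polr1e. They are 6 of the 56923 gene IDs counted in each library and were chosen for their known function and their place in the genome. The 6 lie in a stretch of chromosome 4 or of chromosome 15 (GRCm38) in which the counts matched the gene names, and all 6 passed the filter on low counts. Outside these stretches the names could mostly not be used: of 83 IDs there that carry the name of a ribosomal protein gene, 78 averaged under 20 CPM (counts per 1e+06 gene counts of the library), with a median of 0.33 CPM. All levels from here on are TMM-normalised CPM, which also divide by a scaling factor of each library; the factor was 0.746 in vector replicate 5 and 0.914 to 1.15 in the other 12 libraries. The remaining ribosomal protein genes were therefore not analysed here.

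The series asks in its title whether PSGL-1 on tumour cells holds back macrophages from phagocytosis by way of the integrin LFA-1. EL4 cells, a mouse T-cell lymphoma line, were injected under the skin of the right flank of mice 6 to 8 weeks old at 500000 cells per mouse, and CD45+ cells were sorted from the tumours about 20 days later. Total RNA from these cells was sequenced. The PSGL1_KO group (n = 6) came from tumours of EL4 cells in which PSGL1 was knocked out, and the vector group (n = 7) from tumours of EL4 cells carrying a vector. EL4 cells belong to the CD45+ lineage themselves, so the sort can hold tumour cells as well as host leukocytes. The labels give neither the mouse strain, nor whether the knockout line is a single clone, nor that each library came from a separate mouse, and p-values here refer to spread from library to library, which may in part be technical. The gene of PSGL-1, Selplg, and the CD45 gene, Ptprc, lie outside the readable stretches, so neither the knockout nor the sort could be checked in the counts.

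Ribosomes consist of ribosomal RNA and ribosomal proteins, and nearly all growing cells make them in large numbers. RNA polymerase I copies the ribosomal RNA genes in the nucleolus, and assembly factors process the transcript and join it to ribosomal proteins into a small and a large subunit. The mRNAs of ribosomal proteins and of Pabpc1 begin with a terminal oligopyrimidine tract, a run of C and T bases through which growth signals set their translation together. In lymphoma cells and activated lymphocytes the mRNAs of ribosomal proteins are among the most abundant.

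The libraries differed along a second line besides the group. The deposited files are numbered, and their first digit splits both groups: PSGL1_KO replicates 1 and 2 and vector replicates 1 and 2 have numbers starting with 3, and PSGL1_KO replicates 3 to 6 and vector replicates 3 to 7 have numbers starting with 7. With the group in the model, 39.8% of all 10422 IDs tested differed between the 2 sets of files at an adjusted p below 0.05 (edgeR). Results on the 6 genes are therefore given over all libraries and within each set. The sets are called the number-7 set (4 PSGL1_KO and 5 vector libraries) and the number-3 set (2 and 2) below. Gene counts per library were 3948005 to 5712566 in PSGL1_KO and 3710817 to 5564911 in vector. Vector replicate 5 stood apart, with 34.5% of its gene counts on the mitochondrial chromosome. The other vector libraries had 11.6% to 16.2% there and the PSGL1_KO libraries 10.0% to 17.8%. CPM before TMM scaling divide by all gene counts, so a larger mitochondrial share lowers them for every other gene.

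Some markers of other cell types moved with the group. Only markers that lie in the 2 stretches were read. The summed level of 3 myeloid and B-cell markers (Lyn, Cd72 and Pax5) was 415.9 to 605.5 CPM in PSGL1_KO libraries and 78.3 to 153.0 CPM in vector libraries. Of the 3, Lyn and Cd72 were higher in PSGL1_KO (edgeR). Among all IDs tested in the 2 stretches 20.8% were higher and 3.92% lower over all libraries, and these shares apply to the next lists too. Of 4 markers of T cells and EL4 (Sit1, Il7r, Tox and Bach2), Sit1 was lower and Bach2 higher. Their sums were 360.0 to 552.8 CPM in PSGL1_KO and 430.5 to 602.0 CPM in vector. Bach2 was low, at 2.17 to 5.76 CPM in PSGL1_KO and 1.52 to 2.42 CPM in vector. Tox was also lower in the number-7 set (log2 fold change -0.41, adjusted p = 0.032, edgeR), and 0.25 in the number-3 set without passing. Il7r was -0.30 in the number-7 set and 0.42 in the number-3 set, passing in neither. Of 4 proliferation genes (Ccne2, Melk, Smc2 and Skp2) 0 passed over all libraries in edgeR or DESeq2. There 0 had an unadjusted p below 0.05. Their sums were 662.2 to 1196 CPM in PSGL1_KO and 729.4 to 1336 CPM in vector. Within each set 0 passed, but Melk turned, at -0.34 in the number-7 set and 0.50 in the number-3 set. Its unadjusted p were 0.020 and 0.012 (edgeR). Skp2 was 0.48 in the number-3 set, with an unadjusted p of 0.012 (edgeR). Of 4 stromal markers (Tpm2, Npr3, Osr2 and Reck), 2 were tested and 1, Reck, was higher, with sums over the 4 of 87.7 to 286.8 CPM in PSGL1_KO and 62.4 to 141.4 CPM in vector. With an alternative scaling on the 2 stretches 0 were higher. That scaling took the share of counts in the stretches into account 2 times, as set out under processing, so it overcorrects wherever it is named below. In all 4 lists 0 markers were at 0. Exons of Cd72 overlap a gene on the opposite strand over 1423 of 3422 bases, and those of Lyn over 248 bases. Exons of Pax5, Tox, Bach2, Ccne2 and Npr3 also overlap genes on the opposite strand. The counts of these markers are less certain. The part that this makeup had in the results on translation genes was not tested. In bulk RNA, fewer cells of a type and less of a transcript per cell cannot be told apart.

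The mRNAs of Rps20 and Pabpc1 were lower on average in PSGL1_KO than in vector libraries, by 0.62 and 0.75 on the log2 scale, and Rps20 passed the test over all 13 libraries. Rpl30 lay lower by 0.35 without passing, and the 3 biogenesis genes lay within 0.23 of no difference. Rps20, Rpl30, Pabpc1 and, by less, Polr1e fell in the number-7 set, and in the number-3 set 0 of the 6 genes passed. Across all libraries 1 of the 6 genes was called, in the lower direction. The share called over all IDs was 14.5%, with 5.49% lower and 9.02% higher, and among the 332 IDs tested in the 2 stretches 3.92% were lower and 20.8% higher, 24.7% in all. The median log2 fold change of the 6 genes was -0.29, against -0.01 over all IDs and 0.21 over the IDs of the 2 stretches. All fold changes are PSGL1_KO over vector.

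**Figure D1:**
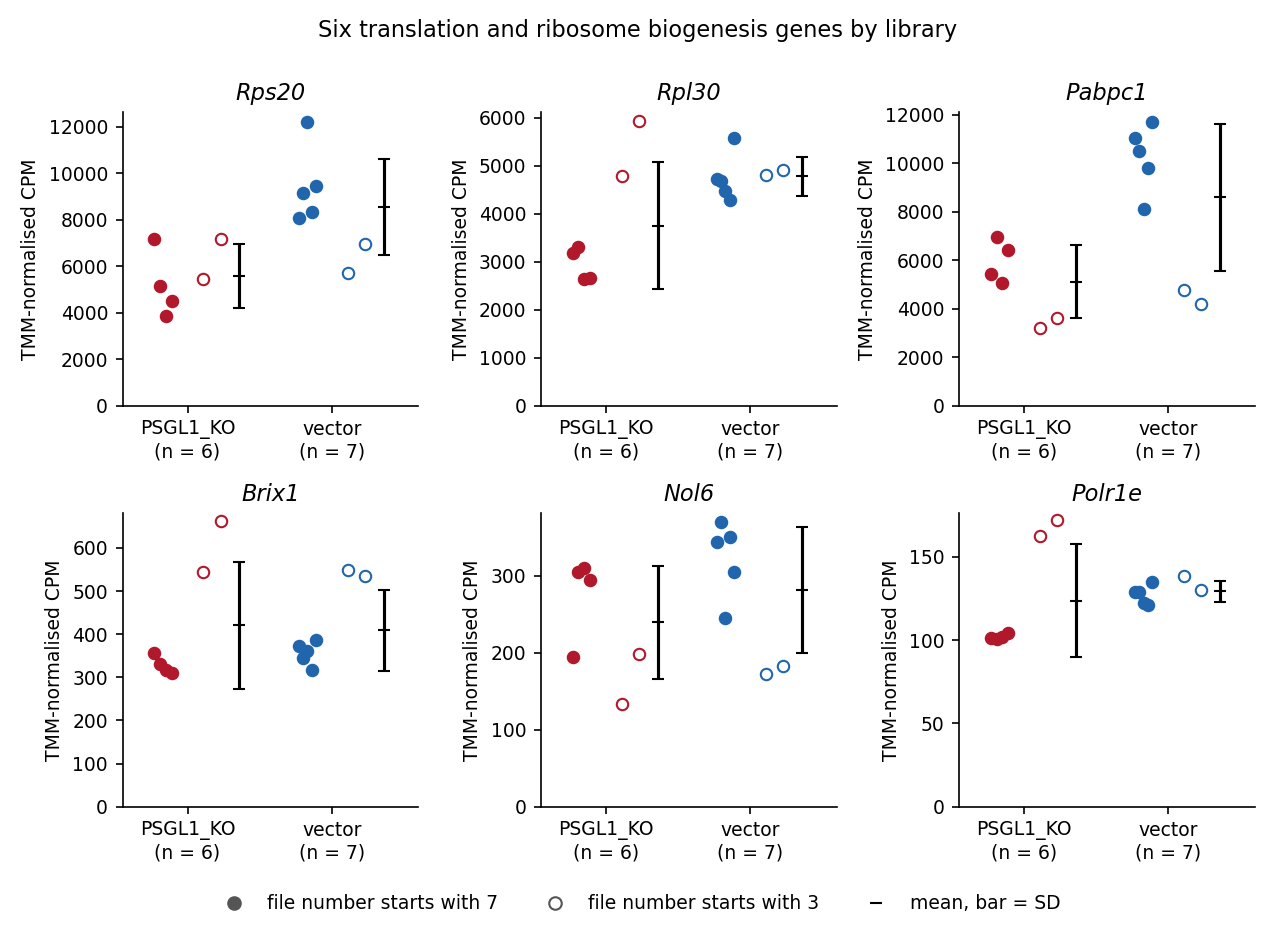
Level of each of the 6 genes in every library, as TMM-normalised CPM on a linear axis starting at 0; filled points are libraries of the number-7 set, open points those of the number-3 set, and bars give the mean and SD of each group. Among the filled points all 4 PSGL1_KO libraries lie below all 5 vector libraries for Rps20, Rpl30, Pabpc1 and Polr1e, while the 2 open points of PSGL1_KO lie below those of vector for Pabpc1, above them for Polr1e and overlap them for the other 4 genes.

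Rps20 encodes a protein of the small ribosomal subunit (ENSMUSG00000028234.7, chromosome 4, 3831334 to 3835665, minus strand). Its level was 3882 CPM at the lowest, 5321 at the median and 7194 at the highest in the 6 PSGL1_KO libraries, and 5715, 8342 and 12222 CPM in the 7 vector libraries. The groups overlapped, with 4 PSGL1_KO libraries below every vector library. The means were 5570 ± 1370 CPM in PSGL1_KO (SD, n = 6) and 8561 ± 2061 CPM in vector (SD, n = 7). The log2 fold change was -0.62 ± 0.20 (SE, 95% interval -1.04 to -0.20), with an adjusted p of 0.0447 in edgeR's quasi-likelihood test. This call was narrow. It was kept when PSGL1_KO replicate 2 or 3 or vector replicate 1 was left out, and lost when any of the other 10 libraries was left out, with adjusted p of 0.0506 to 0.114 and log2 fold changes of -0.65 to -0.54. Without vector replicate 5, the highest of all at 12222 CPM, the fold change was -0.54 with an adjusted p of 0.0787. Before TMM scaling that library had 9118 CPM and the next vector library 8981 CPM, and 4 PSGL1_KO libraries were again below every vector library.

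Within the number-7 set Rps20 had 7187, 5173, 3882 and 4517 CPM in PSGL1_KO replicates 3 to 6, against 8099, 9162, 12222, 8342 and 9438 CPM in vector replicates 3 to 7. All 4 PSGL1_KO libraries were below all 5 vector libraries. The log2 fold change there was -0.87 ± 0.17 (SE), with an adjusted p of 0.0019 (edgeR). PSGL1_KO libraries of the number-3 set had 5468 and 7194 CPM and vector libraries 5715 and 6952 CPM, so that PSGL1_KO lay on both sides, and the fold change was 0.03 ± 0.19 with an adjusted p of 0.934. The difference between these 2 fold changes, number-7 minus number-3 set, was -0.86 ± 0.30 and did not pass over all IDs, with an adjusted p of 0.113. Without PSGL1_KO replicate 3 it was -1.12 and passed, with an adjusted p of 0.0187.

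Rpl30 encodes a protein of the large subunit (ENSMUSG00000058600.14, chromosome 15, 34440505 to 34443640, minus strand). It had 2638 CPM at the lowest, 3242 at the median and 5939 at the highest in PSGL1_KO libraries, and 4280, 4715 and 5570 CPM in vector libraries. The spread was wider in PSGL1_KO, where the 2 libraries of the number-3 set were high and the 4 of the number-7 set low. The means were 3751 ± 1327 CPM in PSGL1_KO (SD, n = 6) and 4774 ± 409.5 CPM in vector (SD, n = 7). The log2 fold change of -0.35 ± 0.19 (SE, 95% interval -0.75 to 0.06) did not pass, with an adjusted p of 0.259 (edgeR).

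The number-7 set alone gave a different picture for Rpl30. PSGL1_KO replicates 3 to 6 had 3176, 3307, 2638 and 2663 CPM, against 4715, 4677, 4465, 4280 and 5570 CPM in vector replicates 3 to 7, again without overlap. Before TMM scaling the groups overlapped. Vector replicate 5, with its 34.5% mitochondrial counts, then had 3331 CPM and only 2 PSGL1_KO libraries were below it. The fold change was -0.69 ± 0.12 (SE) with an adjusted p of 0.00062 (edgeR). For the number-3 set the values were 4784 and 5939 CPM in PSGL1_KO and 4797 and 4915 CPM in vector, a fold change of 0.17 with an adjusted p of 0.56. Of the 6 genes, Rpl30 was the 1 whose fold change differed between the sets by the test of the difference, at -0.83 ± 0.21 with an adjusted p of 0.0452, where 2.11% of all IDs passed. That call was lost without any 1 of 8 libraries (PSGL1_KO replicates 2, 5 and 6 and vector replicates 1, 2, 3, 4 and 7), with adjusted p of 0.066 to 0.284 (edgeR). It was also lost with the overcorrected scaling on the 2 stretches, at -0.50 with an adjusted p of 0.257. In the main scaling the estimated difference between the sets was negative for all 6 genes, from -0.86 for Rps20 to -0.12 for Nol6.

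Other features of the Rpl30 locus bear on its counts. Exons of D730044K07Rik overlap it on the opposite strand over 616 bases, and without a stated strand setting the reads of the 2 genes cannot be told apart there. That ID had 3716 to 5380 counts per library in PSGL1_KO and 4835 to 5876 in vector, with a log2 fold change of -0.36 and an adjusted p of 0.198 (edgeR). The annotation also lists 9 pseudogenes named after Rpl30, which could take or lose reads and make its level less certain. Only pseudogenes that carry a gene's own name were looked for, so the other genes cannot be ranked against Rpl30 on this point. A snoRNA gene lies within the exons of Rps20 (68 bases) and of Rpl30 (132 bases), on the same strand, and both snoRNA IDs had 0 counts in every library. Reads there overlap 2 genes and can be set aside as ambiguous, so the 0 does not show that such reads were absent.

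Pabpc1 encodes the cytoplasmic poly(A)-binding protein, which coats the tails of mRNAs and promotes their translation (chromosome 15, 36595661 to 36609668, minus strand). It had 3195 CPM at the lowest, 5261 at the median and 6966 at the highest in PSGL1_KO libraries, and 4200, 9806 and 11687 CPM in vector libraries. In both groups the number-3 set held the 2 lowest values. The means were 5116 ± 1496 CPM in PSGL1_KO (SD, n = 6) and 8593 ± 3020 CPM in vector (SD, n = 7). The log2 fold change of -0.75 ± 0.26 (SE, 95% interval -1.29 to -0.21) was the lowest of the 6, but it did not pass, with an adjusted p of 0.0606 (edgeR). It passed without vector replicate 1 (-0.85, adjusted p = 0.0249) or vector replicate 2 (-0.86, adjusted p = 0.0204), both of the number-3 set.

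Pabpc1 was lower in PSGL1_KO within both sets of files. Among the number-7 set PSGL1_KO replicates 3 to 6 had 5450, 6966, 5072 and 6410 CPM, against 11060, 10495, 8109, 9806 and 11687 CPM in vector replicates 3 to 7. Among the number-3 set PSGL1_KO had 3195 and 3602 CPM, against 4793 and 4200 CPM in vector. Neither set overlapped between groups in these TMM-normalised levels. Before that scaling the number-7 set overlapped, with 6050 CPM in vector replicate 5 and 7352 CPM in the highest PSGL1_KO library. The gene counts of vector replicate 5 were 34.5% mitochondrial, which lowers its unscaled levels of other genes. The fold change was -0.78 ± 0.14 in the number-7 set, with an adjusted p of 0.00066, and -0.37 ± 0.19 in the number-3 set, with an adjusted p of 0.149 (edgeR). With the first digit of the file number as a covariate over all 13 libraries it was -0.66, with an adjusted p of 0.0011. The same fit gave -0.60 for Rps20 (adjusted p = 0.0174) and -0.43 for Rpl30 (adjusted p = 0.0369), so 3 of the 6 genes were lower under it, where 8.73% of the IDs in the 2 stretches were.

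Polr1e encodes a subunit of RNA polymerase I, the enzyme of ribosomal RNA synthesis (chromosome 4, 45018583 to 45036565, plus strand). It had 100.8 CPM at the lowest, 103.0 at the median and 172.1 at the highest in PSGL1_KO libraries, and 121.1, 128.9 and 138.4 CPM in vector libraries. The vector libraries were close together and the PSGL1_KO libraries lay on both sides of them. The means were 123.7 ± 33.8 CPM in PSGL1_KO (SD, n = 6) and 129.2 ± 6.16 CPM in vector (SD, n = 7), a log2 fold change of -0.06 ± 0.16 with an adjusted p of 0.841 (edgeR). In the number-7 set PSGL1_KO had 100.8 to 104.2 CPM and vector 121.1 to 134.7 CPM, with a fold change of -0.32 ± 0.10 and an adjusted p of 0.0308. The order was the other way in the number-3 set, with 162.2 and 172.1 CPM in PSGL1_KO and 138.4 and 130.0 CPM in vector, a fold change of 0.35 ± 0.19 that did not pass (adjusted p = 0.183). Before TMM scaling vector replicate 5, of the number-7 set and with 34.5% mitochondrial counts, had 91.3 CPM of Polr1e. The lowest PSGL1_KO library then had 105.2 CPM. The difference between the 2 sets was -0.63 ± 0.18, with an adjusted p of 0.0616; it passed without PSGL1_KO replicate 3 (adjusted p = 0.0409), vector replicate 5 (0.0212) or vector replicate 6 (0.041).

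Brix1 encodes an assembly factor of the large subunit (chromosome 15, 10474779 to 10485947, minus strand). It had 309.0 CPM at the lowest, 344.5 at the median and 661.4 at the highest in PSGL1_KO libraries, and 316.1, 371.9 and 548.4 CPM in vector libraries. In both groups the libraries of the number-3 set held the highest values, at 545.2 and 661.4 CPM in PSGL1_KO and 548.4 and 534.8 CPM in vector. The means were 420.1 ± 147 CPM in PSGL1_KO (SD, n = 6) and 409.0 ± 93.4 CPM in vector (SD, n = 7). The log2 fold change was 0.04 ± 0.20 (SE, 95% interval -0.39 to 0.46), with an adjusted p of 0.931 (edgeR). Its direction turned with the setting, to -0.12 in the number-7 set and -0.35 with the overcorrected scaling on the 2 stretches, and it passed in neither.

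Nol6 encodes a nucleolar protein of small-subunit assembly (chromosome 4, 41114427 to 41124455, minus strand). It had 133.6 CPM at the lowest, 246.4 at the median and 311.0 at the highest in PSGL1_KO libraries, and 172.9, 304.5 and 370.0 CPM in vector libraries. The means were 239.6 ± 74.0 CPM in PSGL1_KO (SD, n = 6) and 281.7 ± 81.6 CPM in vector (SD, n = 7), a log2 fold change of -0.23 ± 0.22 with an adjusted p of 0.552 (edgeR). The number-3 set held the 2 lowest vector values, and in PSGL1_KO its values were 133.6 and 198.0 CPM, with replicate 3 of the number-7 set between them at 194.8 CPM. Neither set of files gave a call, with -0.23 in the number-7 set (adjusted p = 0.303) and -0.07 in the number-3 set (adjusted p = 0.827).

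**Figure D2:**
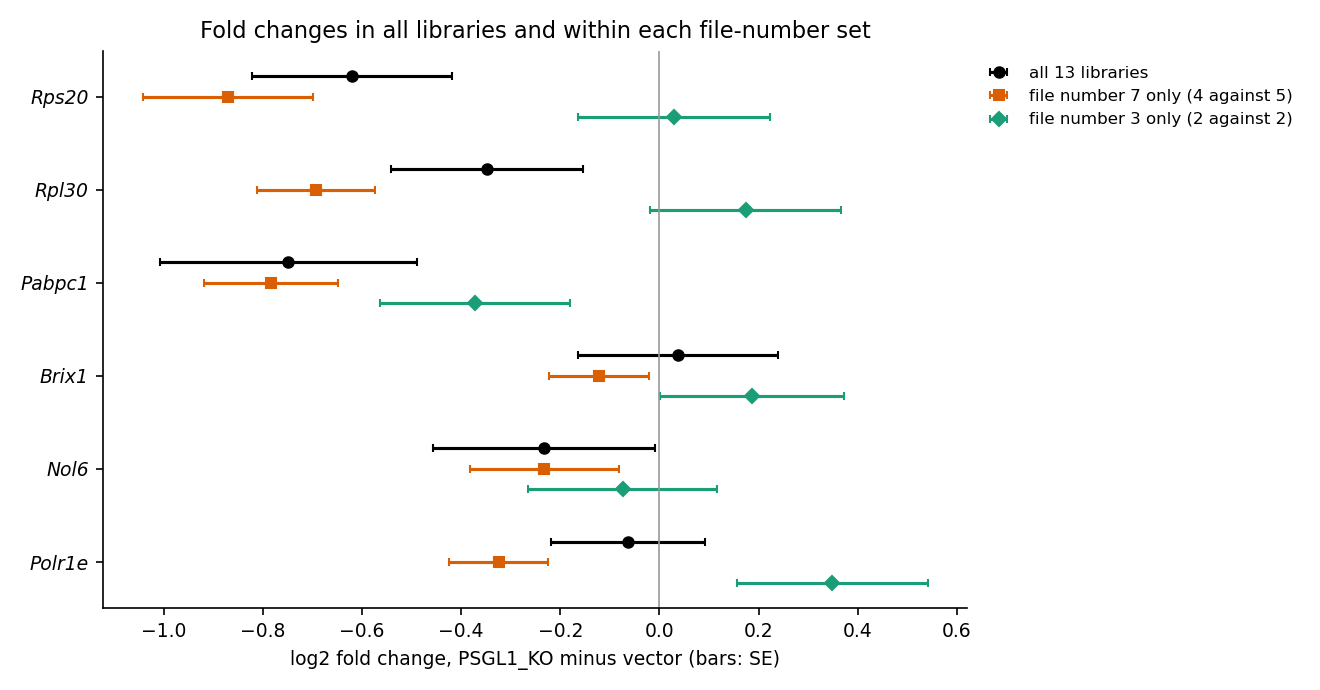
Log2 fold change of each gene, PSGL1_KO over vector, with its SE, over all 13 libraries, within the number-7 set (4 PSGL1_KO against 5 vector) and within the number-3 set (2 PSGL1_KO against 2 vector). In the number-7 set all 6 estimates lie below 0, from -0.87 for Rps20 to -0.12 for Brix1, and in the number-3 set they run from -0.37 for Pabpc1 to 0.35 for Polr1e.

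Counted by set of files, 4 of the 6 genes fell in the number-7 set, where 10.4% of the IDs tested in the 2 stretches were lower and 24.3% higher. With 2 libraries a group, the number-3 set gave 0 calls among the 6 in edgeR, and 0 had an unadjusted p below 0.05, where 3.94% of those IDs were lower and 30.9% higher. The 6 genes had a median log2 fold change of -0.51 in the number-7 set and 0.10 in the number-3 set. The 12 further genes of ribosome assembly, tRNA and cap biology tested below had medians of -0.09 and 0.42. A lower median in the number-7 set was therefore not particular to the 6 genes. In TMM-normalised CPM the 4 PSGL1_KO libraries of the number-7 set lay below all 5 vector libraries for 4 of the 6 genes. They did so for 8.43% of the IDs in the 2 stretches. Before TMM scaling this held for Rps20 but not for Rpl30, Pabpc1 or Polr1e. Vector replicate 5 then had 3331 CPM of Rpl30, with 2 PSGL1_KO libraries below it. It had 6050 CPM of Pabpc1, where PSGL1_KO reached 7352 CPM, and 91.3 CPM of Polr1e, where the lowest PSGL1_KO library had 105.2 CPM. These unscaled levels divide by totals that were 34.5% mitochondrial in vector replicate 5 and 10.0% to 17.8% in PSGL1_KO. Levels over non-mitochondrial counts were not computed, so the overlap does not show that TMM scaling made the separation. The scaling on the 2 stretches, which overcorrects for their share of counts, lowered the fold changes to a median of -0.35 over all IDs. It called 4 of the 6 genes lower where 13.3% of the IDs in the stretches were. The overcorrection shifts these values down, so no conclusion is drawn from the calls. Relative to that median, Rps20 at -1.02, Pabpc1 at -1.04 and Rpl30 at -0.75 were below it, Nol6 at -0.53 was below it without a call (adjusted p = 0.171), Polr1e at -0.44 was close to it and Brix1 at -0.35 was at it.

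The sets of files themselves differed in these genes, in opposite directions. With the group in the model, libraries of the number-7 set were higher than those of the number-3 set in Pabpc1 by 1.00 ± 0.15 (log2, SE), with an adjusted p of 4.0e-05, and in Nol6 by 0.80 ± 0.15, with an adjusted p of 0.00022 (edgeR). They were lower in Brix1, at -0.74 ± 0.11 (adjusted p = 1.79e-05), in Rpl30, at -0.46 ± 0.16 (adjusted p = 0.024), and in Polr1e, at -0.40 ± 0.12 (adjusted p = 0.0105). Rps20, at 0.14 ± 0.19, did not pass (adjusted p = 0.606). What the file number stands for is not given in the sources used here.

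A ratio of 2 genes within a library does not depend on its scaling. The 8 ratios of a ribosomal protein gene to each of the other 4 genes were compared between groups by two-sided exact permutation tests over 1716 relabellings, adjusted over the 8. Rpl30 over Polr1e was lower in every PSGL1_KO library than in any vector library. Its log2 count ratio was 4.67 to 5.11 in PSGL1_KO, with a mean of 4.89 ± 0.18 (SD, n = 6), and 5.11 to 5.37 in vector, with a mean of 5.20 ± 0.08 (SD, n = 7). The difference of -0.31 had an exact p of 0.00058, the smallest these relabellings can give, and an adjusted p of 0.00466. The highest PSGL1_KO library and the lowest vector library, both of the number-3 set, were 5.107 and 5.113, so the groups barely parted. The difference was -0.37 in the number-7 set (exact p = 0.00794, adjusted p = 0.0212) and -0.18 in the number-3 set, where 2 libraries against 2 cannot give an exact p under 0.333.

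Rpl30 over Brix1 also passed over all libraries. It was 3.06 to 3.32 in PSGL1_KO, with a mean of 3.16 ± 0.09 (SD, n = 6), and 3.13 to 3.85 in vector, with a mean of 3.57 ± 0.29 (SD, n = 7). The difference of -0.41 had an exact p of 0.0111 and an adjusted p of 0.0443. The 5 vector libraries of the number-7 set were at 3.63 to 3.85, above every PSGL1_KO library, and the 2 vector libraries of the number-3 set were at 3.13 and 3.20, among the PSGL1_KO libraries. Within the number-3 set the difference was -0.01. The call was kept without PSGL1_KO replicate 4 or vector replicate 1 or 2 and lost without any other 1 of the libraries, with exact tests giving adjusted p of 0.0572 to 0.096.

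The other 6 ratios did not pass over all libraries. Rps20 over Polr1e differed by -0.52 (exact p = 0.039, adjusted p = 0.104) and Rps20 over Brix1 by -0.62 (exact p = 0.0565, adjusted p = 0.113). Rps20 over Brix1 passed in the number-7 set, at -0.77 with an exact test's adjusted p of 0.0212. Against Nol6 the differences were -0.38 for Rps20 and -0.17 for Rpl30, and against Pabpc1 they were 0.09 and 0.30, with adjusted p of 0.427 to 0.78 in the exact tests.

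**Figure D3:**
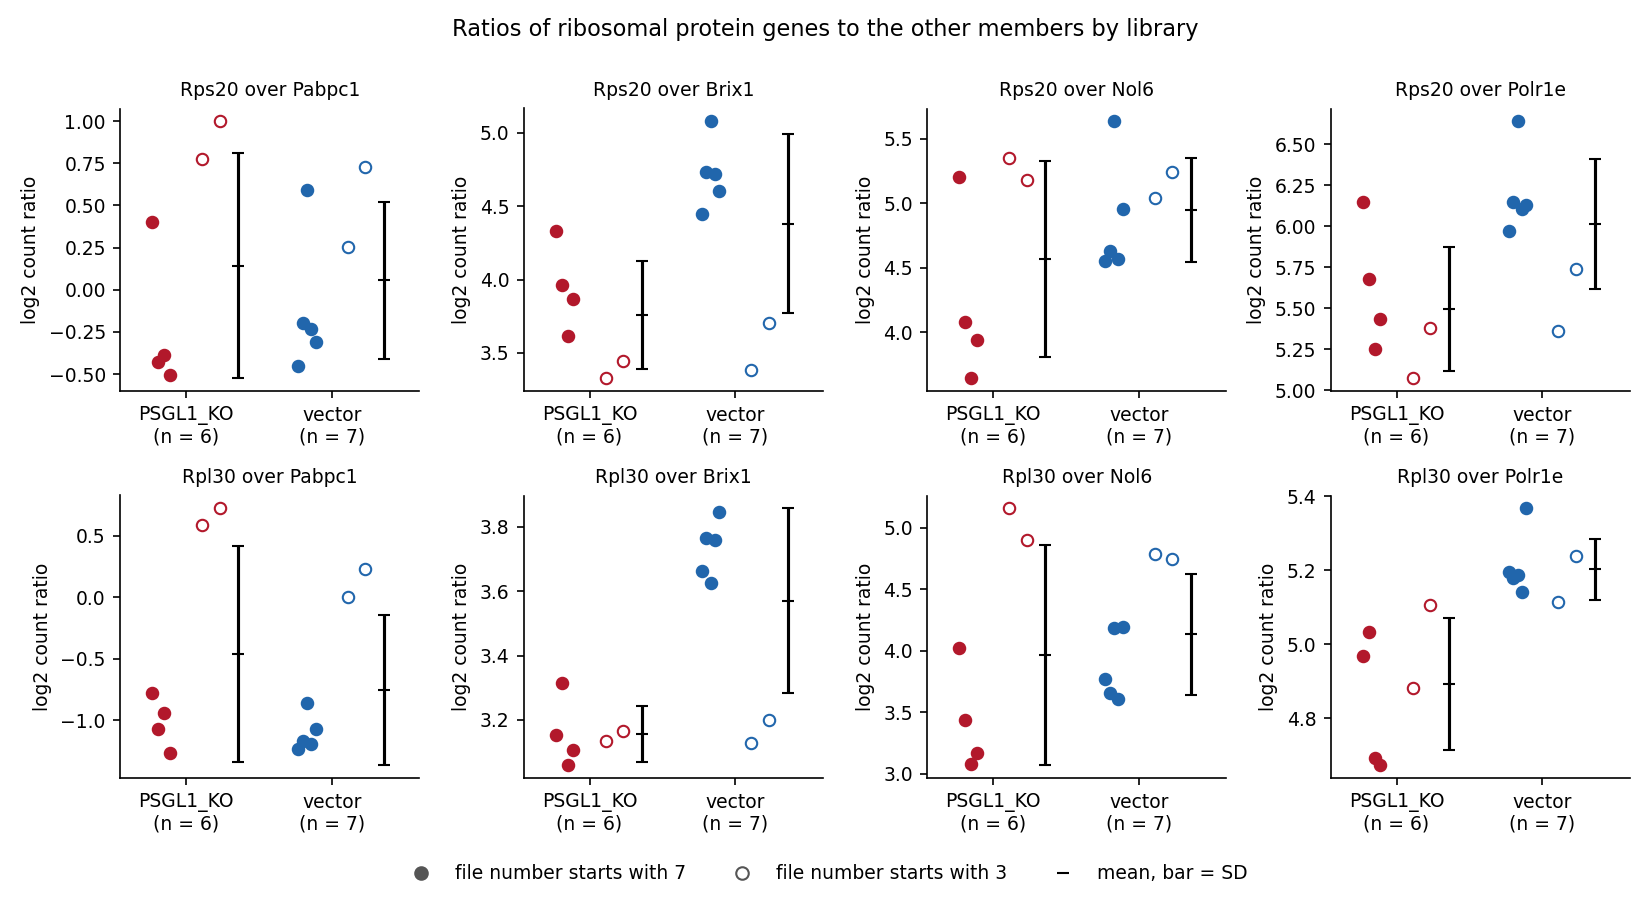
Log2 ratio of counts of each ribosomal protein gene to each of the other 4 genes, by library; filled points are the number-7 set, open points the number-3 set, and bars give the mean and SD. Axes do not start at 0. In the panel of Rpl30 over Polr1e all 6 PSGL1_KO points lie below the 7 vector points, and in the panel of Rpl30 over Pabpc1 the open points all lie above the filled ones.

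Taken as classes, the ribosomal protein pair had nearly the same ratio to Pabpc1 in both groups of the number-7 set, and a lower ratio to the biogenesis genes in PSGL1_KO. The mean log2 ratio of the pair over Pabpc1 was -0.62 in PSGL1_KO and -0.61 in vector in the number-7 set, and 0.77 in PSGL1_KO and 0.30 in vector in the number-3 set. The pair over the mean of the 3 biogenesis genes was 4.20 in PSGL1_KO and 4.77 in vector in the number-7 set, and 4.51 in PSGL1_KO and 4.56 in vector in the number-3 set. Pabpc1 over the 3 biogenesis genes was 4.83 in PSGL1_KO and 5.38 in vector in the number-7 set, and 3.74 in PSGL1_KO and 4.26 in vector in the number-3 set, a difference of -0.55 and -0.52. These class values are descriptions with no test.

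Per kilobase of transcript Rpl30, over its 886-base transcript, was highest, at 4234 ± 1498 CPM per kb in PSGL1_KO and 5388 ± 462 in vector (SD, n = 6 and 7). Pabpc1 (2817 bases) followed at 1816 ± 531 in PSGL1_KO and 3050 ± 1072 in vector, and Rps20 (3706 bases) at 1503 ± 370 in PSGL1_KO and 2310 ± 556 in vector; their ranges overlap. The other annotated Rps20 transcripts are 512 and 582 bases long, and over those its level per kb would be several times higher, so its place in the order is not settled. Brix1 (2664 bases) had 157.7 ± 55.4 CPM per kb in PSGL1_KO and 153.5 ± 35.0 in vector. Nol6 (4599 bases) had 52.1 ± 16.1 in PSGL1_KO and 61.3 ± 17.7 in vector, and Polr1e (2986 bases) 41.4 ± 11.3 in PSGL1_KO and 43.3 ± 2.06 in vector, with overlapping ranges. The lowest Rpl30 library was above the highest Pabpc1 library within each group, and so was Brix1 above Nol6.

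Promoter sequence could be matched for 2 of the 6 genes, Brix1 and Polr1e, in RefSeq promoters of GRCm38.p6. The windows around their start sites are shown, since the 5′ end of the transcript is where a terminal oligopyrimidine tract would lie. They hold 80 bases before the start in lower case and the first 20 transcribed bases in capitals, at chr15:10485918-10486017 on the minus strand for Brix1 and chr4:45018529-45018628 on the plus strand for Polr1e.
Brix1: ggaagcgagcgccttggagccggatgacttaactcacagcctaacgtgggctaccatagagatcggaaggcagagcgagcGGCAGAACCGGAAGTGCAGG
Polr1e: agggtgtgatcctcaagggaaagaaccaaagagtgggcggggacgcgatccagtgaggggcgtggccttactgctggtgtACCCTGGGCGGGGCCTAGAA
Neither has a run of 5 or more C or T bases over the annotated start, a feature of 10.1% of the 32851 promoters in the table. Neither holds CACGTG, which reads the same on both strands, in its window of 300 bases, against 7.15% of promoters. Both hold CCGGAAGT once on 1 of the 2 strands, starting 8 bases into the transcript of Brix1 and 25 bases into that of Polr1e, beyond the bases shown; 3.89% of promoters do. That motif was chosen after the sequences had been read. These are matches of letters and say nothing of a factor.

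The genes most like each of the 6 in their pattern over the 13 libraries were looked up among 265 protein-coding genes of the 2 stretches, by the root-mean-square difference of log2 CPM after centring each gene. For both ribosomal protein genes the nearest was Rad1, of the DNA damage checkpoint, at 0.31 for Rps20 and 0.18 for Rpl30, where the median over the 265 was 0.63 and 0.49. Next came Mtmr12 for Rps20 (0.33) and Ankrd46 for Rpl30 (0.19). Ubap2 (0.17) and Pdzd2 (0.28) were nearest to Pabpc1, and Orc3 of the origin recognition complex (0.11) and Mrpl50 (0.13) to Brix1. Drosha, of microRNA processing, was at 0.21 from Nol6, and Ripk2 (0.13) and Tars (0.14) were nearest to Polr1e. Rad1 starts beside Brix1 on chromosome 15 (10486018 to 10499063). Among the 6 genes, Rpl30 and Polr1e were closest (0.20), then Brix1 and Polr1e (0.21), and Pabpc1 and Brix1 were farthest apart (0.89). These points share libraries and depth and carry no p.

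The wider pathway gave 1 call, in the higher direction. Of 16 further names of ribosome assembly, tRNA and cap biology, 14 had an ID, 13 lay in the 2 stretches and 12 were tested. Over all libraries 1 was higher and 0 lower in edgeR, with 20.8% higher and 3.92% lower among all IDs of the stretches. Of the 12, 9 had a positive log2 fold change (2 of 12 with the overcorrected scaling on the 2 stretches), and their median was 0.10. At an unadjusted p below 0.05 there was 1 lower gene, Mdn1, and DESeq2 called 1 higher and 0 lower, where it called 17.5% and 4.38% of the IDs it could test in the stretches. Rmrp, the RNA of the enzyme RNase MRP, had 0 counts in every library. Another annotated ID of that name covers all 271 exon bases on the same strand. Reads there can be set aside as ambiguous, so the 0 says nothing of its expression.

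Pop1, a protein subunit of RNase MRP and RNase P, which cut precursors of ribosomal RNA and tRNA (chromosome 15, 34495304 to 34530648), was the gene that rose. It had 172.5 CPM at the lowest, 203.6 at the median and 259.8 at the highest in PSGL1_KO libraries, and 148.6, 156.8 and 163.5 CPM in vector libraries, so every PSGL1_KO library was above every vector library, as for 10.5% of the IDs of the stretches. The means were 214.0 ± 37.3 CPM in PSGL1_KO (SD, n = 6) and 155.9 ± 5.25 CPM in vector (SD, n = 7), a log2 fold change of 0.46 ± 0.13 with an adjusted p of 0.0226 (edgeR). Its fold change was 0.29 in the number-7 set (adjusted p = 0.0504) and 0.77 in the number-3 set (adjusted p = 0.00076). The call was lost without PSGL1_KO replicate 1 (0.39, adjusted p = 0.062) or 2 (0.40, adjusted p = 0.0545) or vector replicate 6 (0.46, adjusted p = 0.0528). It was also lost with no filter on low counts (0.46, adjusted p = 0.12) and with the overcorrected scaling on the 2 stretches (0.09, adjusted p = 0.671).

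Tgs1, which makes the trimethylguanosine cap of small nuclear and nucleolar RNAs (chromosome 4, 3574875 to 3616619), averaged 312.8 ± 94.5 CPM in PSGL1_KO (SD, n = 6) and 217.0 ± 60.9 CPM in vector (SD, n = 7), with a log2 fold change of 0.53 and an adjusted p of 0.0885 (edgeR). Within each set of files every PSGL1_KO library was above every vector library, with a fold change of 0.45 in the number-7 set (adjusted p = 0.0038) and 0.56 in the number-3 set (adjusted p = 0.0167). Mdn1, an ATPase that remodels pre-ribosomes of the large subunit (chromosome 4, 32657119 to 32775217), averaged 458.5 ± 64.0 CPM in PSGL1_KO and 566.9 ± 53.0 CPM in vector, with a fold change of -0.31 and an adjusted p of 0.132. With the first digit as a covariate both passed, Tgs1 at 0.48 with an adjusted p of 0.00051 and Mdn1 at -0.30 with an adjusted p of 0.0423, so that 2 of the 12 were higher, Pop1 and Tgs1, and 1 lower. In the replicate block Tgs1 also passed (0.51, adjusted p = 0.005). For Mdn1, the overcorrected scaling on the 2 stretches gave -0.63 with an adjusted p of 0.0249 (edgeR).

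In the number-3 set 5 of the 12 were higher and 0 lower in edgeR, where 30.9% of the IDs in the stretches were higher, and 0 were lower at an unadjusted p below 0.05. In the number-7 set 1 was higher, Tgs1, where 24.3% of the IDs in the stretches were. The 5 of the number-3 set were Pop1, Tgs1, the arginyl-tRNA synthetase gene of mitochondria Rars2 (0.50), Rpp25l (0.85), a relative of an RNase P subunit gene, and Trmt10b (0.97), a tRNA methyltransferase gene. Trmt10b averaged 46.0 CPM in PSGL1_KO and 49.6 CPM in vector in the number-7 set, and 76.0 CPM in PSGL1_KO and 39.5 CPM in vector in the number-3 set. Its fold change differed between the sets by -1.05 ± 0.25, with an adjusted p of 0.0375. Over all libraries the log2 fold changes of the genes that did not pass were 0.27 for Rars2, 0.02 for Rpp25l, 0.26 for Trmt10b, -0.04 for the exosome subunit gene Exosc3, -0.05 for Zcchc7 and 0.004 for the threonyl-tRNA synthetase gene Tars. They were 0.12 for the mitochondrial ribosomal protein gene Mrpl50, 0.07 for the mRNA capping enzyme gene Rngtt and 0.17 for the cap-binding gene Ncbp1. Exons of Exosc3 and of Ncbp1 overlap genes on the opposite strand, so their counts are less certain.

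**Figure D4:**
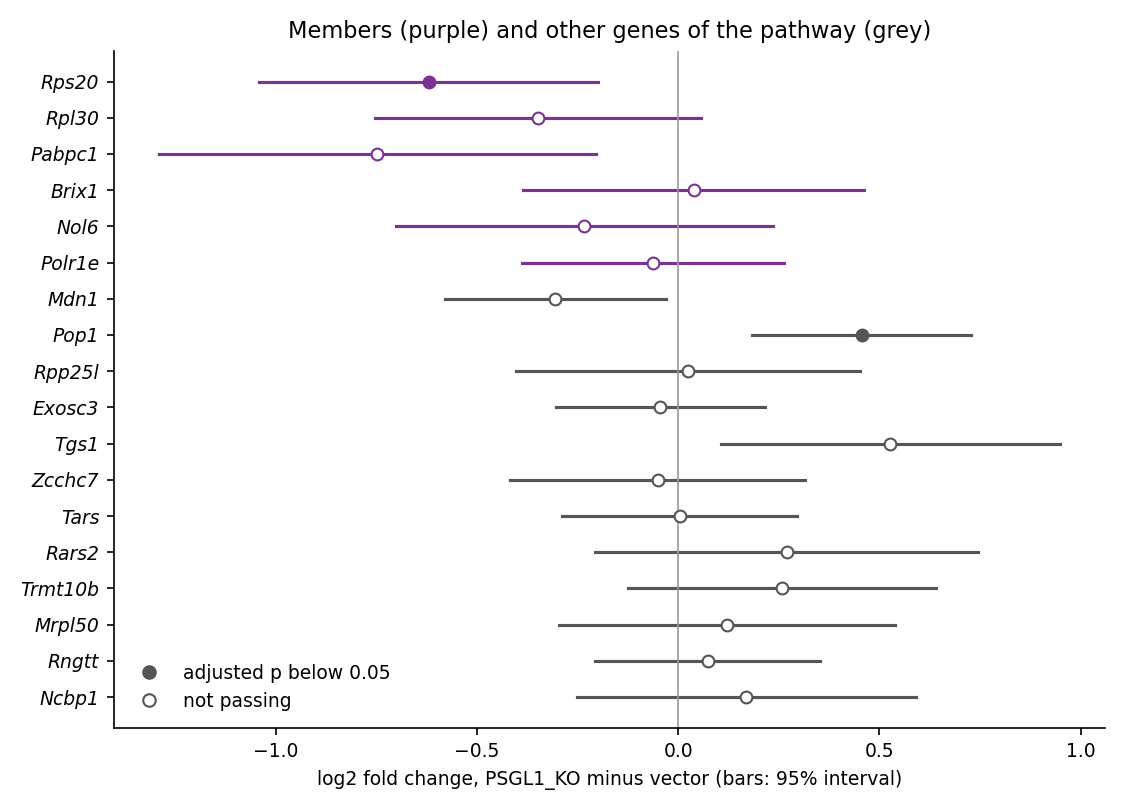
Log2 fold change with its 95% interval over all 13 libraries for the 6 genes (purple) and the 12 other pathway genes tested (grey), PSGL1_KO over vector; filled points passed at an adjusted p below 0.05 in edgeR. Rps20 at -0.62 and Pop1 at 0.46 are the 2 filled points, on opposite sides of 0.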

How the data were processed

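Total RNA of CD45+ cells sorted from EL4 tumours was sequenced in 13 libraries, made with a NEBNext Ultra RNA kit per the labels' protocols. Raw counts, not normalised, were deposited by the authors in 1 file a library. The submitters' processing notes name HISAT2, SAMtools and HTSeq as tools and mm10 as the build. Tool versions, the release of the annotation and the strand mode of counting are not given in the sources used. Each file held 56923 gene IDs, of which 52073 matched a name and a place in GENCODE M21 on GRCm38, and 5 HTSeq summary rows. These were not part of a library's size or of any test. They held 67.3% to 75.4% of a library's total as no feature, 7.71% to 13.6% as not unique, 3.55% to 5.67% as low quality, 1.05% to 3.47% as not aligned and 0.307% to 0.475% as ambiguous, which left 10.5% to 12.5% on gene IDs. Library sizes include IDs whose names do not match their counts. The 2 stretches held 1104 IDs, 332 of them tested.

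Groups came from the sample titles. edgeR 4.0.16 in R 4.3.3 fitted all IDs kept by its expression filter (10422), with TMM factors, the robust quasi-likelihood test, the group as the term and Benjamini-Hochberg adjustment over all of them, two-sided at 0.05. Levels are TMM-normalised CPM. The test of a difference between sets of files used the interaction of group and first digit. Alternatives were DESeq2 1.42.0, RLE scaling, scaling on the 2 stretches, no filter, no mitochondrial IDs, the first digit as a covariate, each set of files alone, each library left out and a replicate block. The scaling on the 2 stretches multiplied each library's count total in the stretches by a TMM factor of the stretch genes. That factor was computed against full library sizes and already held the stretch share, so this setting overcorrects. Within a group the mean chi-square per ID between 2 libraries was 3.23 to 103, where sampling noise gives about 1, and each library was counted as 1 replicate. The common dispersion corresponded to a coefficient of variation of 29.4% between libraries. The fitting and permutation scripts were tested on simulated data. Every pathway gene in the 2 stretches was named, apart from items not reported here, with its values where it passed and otherwise with its log2 fold change; values of Tgs1 and Mdn1 were added after they were seen. The genes, the lists and the tests were chosen with earlier results of these data known.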

Additional observations from a re-analysis of the deposited data

Results flagged for a closer look

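The fold change of Rpl30 differed between the 2 sets of files by -0.83 (log2, number-7 minus number-3 set; adjusted p = 0.0452, edgeR), with -0.69 in the number-7 set and 0.17 in the number-3 set. In TMM-normalised CPM every PSGL1_KO library of the number-7 set lay under the lowest vector library of that set. In the number-3 set 1 of 2 lay under the lower vector library of its set, at 4784 against 4797 CPM. Before TMM scaling only 2 PSGL1_KO libraries lay under the lowest vector library, vector replicate 5 at 3331 CPM with 34.5% mitochondrial counts. The fold change of Trmt10b differed by -1.05 (adjusted p = 0.0375, edgeR), with -0.12 in the number-7 set and 0.97 in the number-3 set. The difference of Trmt10b was lost without any 1 of PSGL1_KO replicates 2, 4, 5 and 6 and vector replicates 1, 2, 4 and 7, with adjusted p of 0.0513 to 0.251 (edgeR). It was also lost with the overcorrected scaling on the 2 stretches, at -0.73 with an adjusted p of 0.288.

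In 2 of 52 sets of values examined, the highest library stood far from the others of its group, where chance alone gives about 1 in 20. Both were of Zcchc7, an exosome cofactor gene. Zcchc7 had 276.2 CPM in PSGL1_KO replicate 3, where the next PSGL1_KO library had 197.7 CPM. It had 326.4 CPM in vector replicate 5, where the next vector library had 219.4 CPM. These levels are TMM-normalised. Before that scaling the values were 292.1 and 207.2 CPM for the pair in PSGL1_KO and 243.5 and 231.2 CPM for the highest and second vector library; the scaling factor of vector replicate 5 was 0.746. Vector replicate 5 is also the library with 34.5% mitochondrial counts; the part of this in its Zcchc7 level was not tested.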

How the results depend on the processing

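Values in parentheses are log2 fold changes, PSGL1_KO over vector. Over all libraries the call of Rps20 was lost without mitochondrial IDs (-0.61, adjusted p = 0.0501). In the number-7 set alone Rpl30 (-0.69), Pabpc1 (-0.78) and Polr1e (-0.32) passed, and Brix1 (-0.12), Rpp25l (-0.22), Tars (-0.19), Trmt10b (-0.12), Rngtt (-0.096) and Ncbp1 (-0.083) turned negative. In the number-3 set alone Rps20 (0.030), Rpl30 (0.17), Polr1e (0.35) and Exosc3 (0.094) turned positive. With the first digit as a covariate Rpl30 (-0.43) and Pabpc1 (-0.66) passed, and Brix1 (-0.031) and Tars (-0.022) turned negative. With the overcorrected scaling on the 2 stretches Rpl30 (-0.75), Pabpc1 (-1.04) and Polr1e (-0.44) passed, and Brix1 (-0.35), Rpp25l (-0.32), Tars (-0.36), Rars2 (-0.12), Trmt10b (-0.15), Mrpl50 (-0.26), Rngtt (-0.29) and Ncbp1 (-0.22) turned negative. That setting shifts all fold changes down, so these turns are not read as results. Pabpc1 also passed with no filter (-0.75) and in DESeq2 (-0.77). Tars was -3.7e-05 with RLE scaling and -0.0032 in DESeq2.

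The counts of IDs were 940 higher and 572 lower in the reported fit. They were 404 higher and 1579 lower with the overcorrected scaling on the stretches, 1435 higher and 1254 lower with the covariate, 1038 lower in the number-7 set and 1135 lower in the number-3 set. Of the ratios, Rps20 over Pabpc1 turned negative (-0.11) and Rps20 over Brix1 passed (-0.77) in the number-7 set. In the number-3 set Rps20 over Nol6 (0.12) and Rpl30 over Nol6 (0.26) turned positive, and Rpl30 over Brix1 (-0.014) and over Polr1e (-0.18) no longer passed. Among the differences between sets of files, the overcorrected scaling on the stretches lost Rpl30 (-0.50) and turned Brix1 (0.051), Nol6 (0.23), Exosc3 (0.18), Tgs1 (0.25), Zcchc7 (0.22) and Mrpl50 (0.16) positive. Polr1e passed without mitochondrial IDs (-0.69).

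Same-numbered libraries correlated at 0.295 to 0.578 in 4 of 6 pairs and at -0.0521 and 0.052 in the other two. The labels do not say that a number marks a shared animal or batch, so the numbers were not taken as a pairing. A replicate block, over replicates 1 to 6, lost Rps20 (-0.59, adjusted p = 0.0679; 0.0785 for the same libraries without the block), let Pabpc1 pass (-0.62), left Brix1 at -0.0076 and gave 1167 IDs higher and 953 lower. Under the block Rpl30 over Polr1e was -0.28, with an exact p of 0.0312, the smallest its 64 sign flips allow. Its adjusted p of 0.125 over the 8 ratios therefore says nothing about its stability. Rpl30 over Brix1 was -0.37, with an exact p of 0.0625, above that smallest value, and also an adjusted p of 0.125. In replicate 1 that ratio was 3.133 in PSGL1_KO and 3.128 in vector. Of 6 PSGL1_KO libraries 2 correlated best with their own number.

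Leaving out 1 library at a time gave -0.70 to -0.54 for Rps20, -0.52 to -0.24 for Rpl30, -0.86 to -0.65 for Pabpc1, -0.13 to 0.14 for Brix1, -0.32 to -0.11 for Nol6, -0.17 to 0.013 for Polr1e, 0.39 to 0.53 for Pop1 and 0.41 to 0.65 for Tgs1. It gave 753 to 1034 IDs higher and 425 to 607 lower. Where a direction turned, the ranges were -0.10 to 0.00016 for Exosc3, -0.026 to 0.24 for Mrpl50, -0.075 to 0.13 for Rpp25l, -0.077 to 0.075 for Tars and -0.16 to 0.085 for Zcchc7. The ratios ranged over -0.084 to 0.22 (Rps20 over Pabpc1), 0.06 to 0.46 (Rpl30 over Pabpc1), -0.54 to -0.20 (Rps20 over Nol6), -0.35 to -0.27 (Rpl30 over Polr1e), -0.79 to -0.51 (Rps20 over Brix1), -0.65 to -0.41 (Rps20 over Polr1e), -0.49 to -0.37 (Rpl30 over Brix1) and -0.41 to 0.0043 (Rpl30 over Nol6). Differences between sets ranged over -1.12 to -0.72 (Rps20), -0.98 to -0.74 (Rpl30), -0.38 to 0.12 (Nol6), -0.71 to -0.61 (Polr1e), -0.10 to 0.16 (Mdn1) and -0.28 to 0.14 (Zcchc7). The causes were not tested. With 2 libraries a group, the number-3 set alone limits what a missed threshold shows.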
